A study of Mus musculus with 2 samples.

Results

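Genes for 8 receptors of NK cells outside the Ly49 family, *Klrb1c*, *Klrk1*, *Klrd1*, *Klrc1*, *Klrc2*, *Klre1*, *Klrg1*, and *Ncr1*, were followed through the lymphoid clusters of the mouse kidney in nephrotoxic serum nephritis (NTN). These 8 of the 20299 genes in the feature table were listed by name and not by a cutoff on their values, although earlier results of these data were known. All but *Ncr1*, which encodes NKp46 of the immunoglobulin superfamily, encode C-type lectin-like receptors. The kidneys were studied by single-cell RNA sequencing (10x, 3′ ends). The first group was WT, the other *Vsir-/-*, without the immune checkpoint VISTA and bred from cryopreserved sperm of a mouse repository, and each group gave 1 library. Both groups were C57BL/6 mice of 8 weeks of age that received 200 μg of sheep IgG in Freund's adjuvant and, 4 days later, sheep nephrotoxic serum. The serum dose in the labels is 2 μl/g, and the methods of the study give another amount. The number of mice behind each library is not given. Kidneys were digested in liberase at 0.2 mg/ml for 30 minutes. By the labels, WT cells were sorted on CD45 whereas every kidney cell of the *Vsir-/-* mice was kept, although the methods describe a sort for both, so a difference in the sort and the genotype cannot be told apart.

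NK cells read their surroundings through paired sets of activating and inhibitory receptors. CD94 (*Klrd1*) pairs with NKG2A (*Klrc1*), which inhibits, or with NKG2C (*Klrc2*), which activates, and both pairs bind Qa-1b. NKG2D (*Klrk1*) activates through the adaptors DAP10 and DAP12 on binding stress-induced ligands, NK1.1 (*Klrb1c*) and NKp46 (*Ncr1*) activate through the Fc receptor γ chain, and KLRG1 binds cadherins and inhibits. KLRE1 (*Klre1*) forms dimers with KLRI1 or KLRI2, and effector and memory CD8+ T cells are known to carry several of these receptors.

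The start sites of *Ncr1* and *Klrb1c*, whose levels across clusters were most alike, and of *Klrc1* and *Klrc2*, the genes with the lowest ratios in NK cells, are given here from RefSeq (GRCm38.p6). Each window holds 250 bases before and 50 bases after a start site on the strand of the gene. Capitals mark the letters TGTGGT (a core read by RUNX factors) or GGAAGT (a core read by ETS factors), or their reverse complements, ACCACA and ACTTCC. The window of *Ncr1* is chr7:4337465-4337764 (plus strand), that of *Klrb1c* is chr6:128788592-128788891 (minus strand), that of *Klrc1* is chr6:129678924-129679223 (minus strand), and that of *Klrc2* is chr6:129660507-129660806 (minus strand).
Ncr1: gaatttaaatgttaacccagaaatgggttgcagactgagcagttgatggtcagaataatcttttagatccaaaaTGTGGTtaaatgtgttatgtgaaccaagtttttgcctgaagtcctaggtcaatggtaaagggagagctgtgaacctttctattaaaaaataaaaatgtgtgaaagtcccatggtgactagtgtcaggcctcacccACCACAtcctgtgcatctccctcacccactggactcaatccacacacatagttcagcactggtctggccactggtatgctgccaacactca
Klrb1c: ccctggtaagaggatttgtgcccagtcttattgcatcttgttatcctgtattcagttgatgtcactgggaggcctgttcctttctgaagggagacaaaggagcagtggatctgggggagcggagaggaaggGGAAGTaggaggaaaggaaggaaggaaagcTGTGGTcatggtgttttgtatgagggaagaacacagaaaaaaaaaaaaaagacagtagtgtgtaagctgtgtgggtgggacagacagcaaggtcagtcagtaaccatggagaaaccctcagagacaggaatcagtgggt
Klrc1: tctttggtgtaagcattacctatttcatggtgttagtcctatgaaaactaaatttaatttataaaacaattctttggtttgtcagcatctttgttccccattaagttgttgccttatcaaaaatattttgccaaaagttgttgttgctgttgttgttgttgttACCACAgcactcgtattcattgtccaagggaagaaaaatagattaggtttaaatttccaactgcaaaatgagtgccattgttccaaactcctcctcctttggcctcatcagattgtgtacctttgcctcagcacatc
Klrc2: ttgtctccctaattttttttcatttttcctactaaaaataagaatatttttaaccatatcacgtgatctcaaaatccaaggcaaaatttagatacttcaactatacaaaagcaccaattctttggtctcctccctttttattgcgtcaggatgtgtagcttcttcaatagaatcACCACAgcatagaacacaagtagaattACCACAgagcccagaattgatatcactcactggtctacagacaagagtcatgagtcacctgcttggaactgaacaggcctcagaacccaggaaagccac

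Windows were found for 6 of the 8 genes, and *Klrc2*, *Klre1*, and *Ncr1* had 2 each. All 6 genes, *Klrk1* and *Klre1* included, had at least 1 window with TGTGGT on either strand, and 16.8% of all 32851 windows held it. GGAAGT was found only in the window of *Klrb1c*, against 23.8% of all windows. GGTGTG, a core read by T-box factors, was in none of their windows, against 19% of all windows. No 2 matches overlapped. A match of letters is a description of these windows and not a binding site. *Runx3*, a RUNX factor of NK cells and CD8+ T cells, had 993 UMIs in WT NK cells (264 CPM, UMIs scaled to a common total of 1e6) and 97 UMIs (191 CPM) in *Vsir-/-* NK cells.

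The WT library held 5470 cells and 32799550 UMIs (unique molecular identifiers, 1 per captured transcript), and the *Vsir-/-* library held 1844 cells and 18601189 UMIs, with 3053 and 785 cells in the lymphoid clusters. *Vsir* itself had 4278 UMIs in the WT library (130 CPM) and 8 in the *Vsir-/-* library (0.43 CPM). Transcripts of kidney tubule cells were higher in every cluster of the *Vsir-/-* library. In NK cells the 15 tubule genes together gave 59.3 CPM in the WT library and 2892 CPM in the *Vsir-/-* library. With mitochondrial and tubule genes left out of the total, the log2 ratios of the 8 receptor genes in NK cells ran from -1.17 (*Klrc1*) to -0.32 (*Klrg1*). With them, the same genes were at -1.19 and -0.33. At 2892 CPM the tubule genes were a small part of the total, so leaving them out of it could hardly move a ratio. The part of tubule transcripts in the ratios given here was therefore not tested. The libraries shared 5 cell barcodes, and 4 of the cells that carry them were lymphoid. With 1 library per genotype there were no replicates and no tests. Intervals in brackets are 95% intervals that cover counting error only, and log2 ratios compare CPM of the *Vsir-/-* library with CPM of the WT library after 0.5 UMIs were added to each sum.

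The NK cluster (594 WT and 67 *Vsir-/-* cells) carried markers of its label. *Nkg7*, a granule protein, had a UMI in 100% and 98.5% of its cells, and *Prf1*, which encodes perforin, in 96.5% and 97%. *Eomes*, of the same list, had one in 47.5% and 67.2%. In effector memory-like CD8+ T cells *Nkg7* was also in 100% of cells of both libraries, and *Prf1* in 69% and 28.6%. *Cd3e*, a chain of the T cell receptor complex, had 198 UMIs in WT NK cells (52.7 CPM) and 0 in *Vsir-/-* NK cells. Of the 6 T cell markers, 5 were past 2-fold lower in *Vsir-/-* NK cells, against 7.01% of the 8963 genes tested there. A UMI of *Cd3d*, *Cd3e*, or *Cd3g* was in 28.6% of WT and 10.4% of *Vsir-/-* NK cells.

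All 8 receptor genes were detected in NK cells of both libraries, and each level was lower in the *Vsir-/-* library. *Klrc1*, the inhibitory partner of CD94, had 1324 UMIs in WT NK cells (352 CPM [334 to 372]) and 78 in *Vsir-/-* NK cells (154 CPM [122 to 192]), a log2 ratio of -1.19 [-1.54 to -0.86]. It had a UMI in 60.9% of WT and 43.3% of *Vsir-/-* cells. *Klrc2*, the activating partner, had 1383 UMIs (368 CPM) and 100 UMIs (197 CPM), a log2 ratio of -0.89 [-1.21 to -0.61], with a UMI in 75.3% and 73.1% of cells. The median depth of these cells was 5491.5 UMIs in the WT and 5472 in the *Vsir-/-* library. At 1000 UMIs per cell the shares were 26% and 11.9% for *Klrc1* and 33.6% and 19.4% for *Klrc2*. These thinned *Vsir-/-* shares rest on 10 UMIs of *Klrc1* and 14 of *Klrc2* in 1 random draw. The median cell held 1 UMI of *Klrc1* in the WT library (range 0 to 16) and 0 in the *Vsir-/-* library (0 to 7). The common chain *Klrd1* had 4107 UMIs (1093 CPM) and 369 UMIs (728 CPM), a log2 ratio of -0.58 [-0.74 to -0.43], with a median of 6 UMIs per WT cell (0 to 50) and 4 per *Vsir-/-* cell (0 to 25).

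Among the other activating receptors, *Klrk1* had 803 CPM in WT and 545 CPM in *Vsir-/-* NK cells (3019 and 276 UMIs), a log2 ratio of -0.56 [-0.74 to -0.38]. *Klrb1c* had 597 and 395 CPM (2243 and 200 UMIs), a log2 ratio of -0.59 [-0.81 to -0.39]. *Ncr1* had 702 and 552 CPM (2639 and 280 UMIs), a log2 ratio of -0.34 [-0.53 to -0.17]. These 3 genes had a UMI in 91% to 95.5% of NK cells of either library. In thinned cells *Klrk1* was in 52.9% and 38.8%, whereas *Ncr1* was in 50.3% and 49.3%. *Klre1* had 1026 and 789 CPM (3855 and 400 UMIs), a log2 ratio of -0.38 [-0.53 to -0.23]. *Klrg1*, which marks mature NK cells, had 411 and 326 CPM (1544 and 165 UMIs), a log2 ratio of -0.33 [-0.58 to -0.10], and had a UMI in 74.7% and 74.6% of cells. With every cell thinned to 1000 UMIs (seed 1), the sign of *Klrg1* turned (log2 ratio 0.30, on 257 WT and 36 *Vsir-/-* UMIs). By the mean of CPM over cells, without thinning, *Klrg1* was at -0.31.

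Of the 8 genes only *Klrc1* was past 2-fold lower in *Vsir-/-* NK cells, where 7.01% of the 8963 genes with at least 20 UMIs were past 2-fold lower and 9.86% past 2-fold higher. The median log2 ratio of the 8 genes was -0.57, and that of all 8963 genes was 0.07, with 45.2% of genes below 0. On the scale of UMIs per cell the ratio of *Klrc1* was -0.93, so that none of the 8 passed 2-fold. The median NK cell held UMIs of 7 of the 8 genes in both libraries, and all 8 were seen in 198 WT and 13 *Vsir-/-* cells. After thinning to 1000 UMIs the median was 4 of 8 in 580 WT cells and 3 of 8 in 67 *Vsir-/-* cells.

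**Figure D1:**
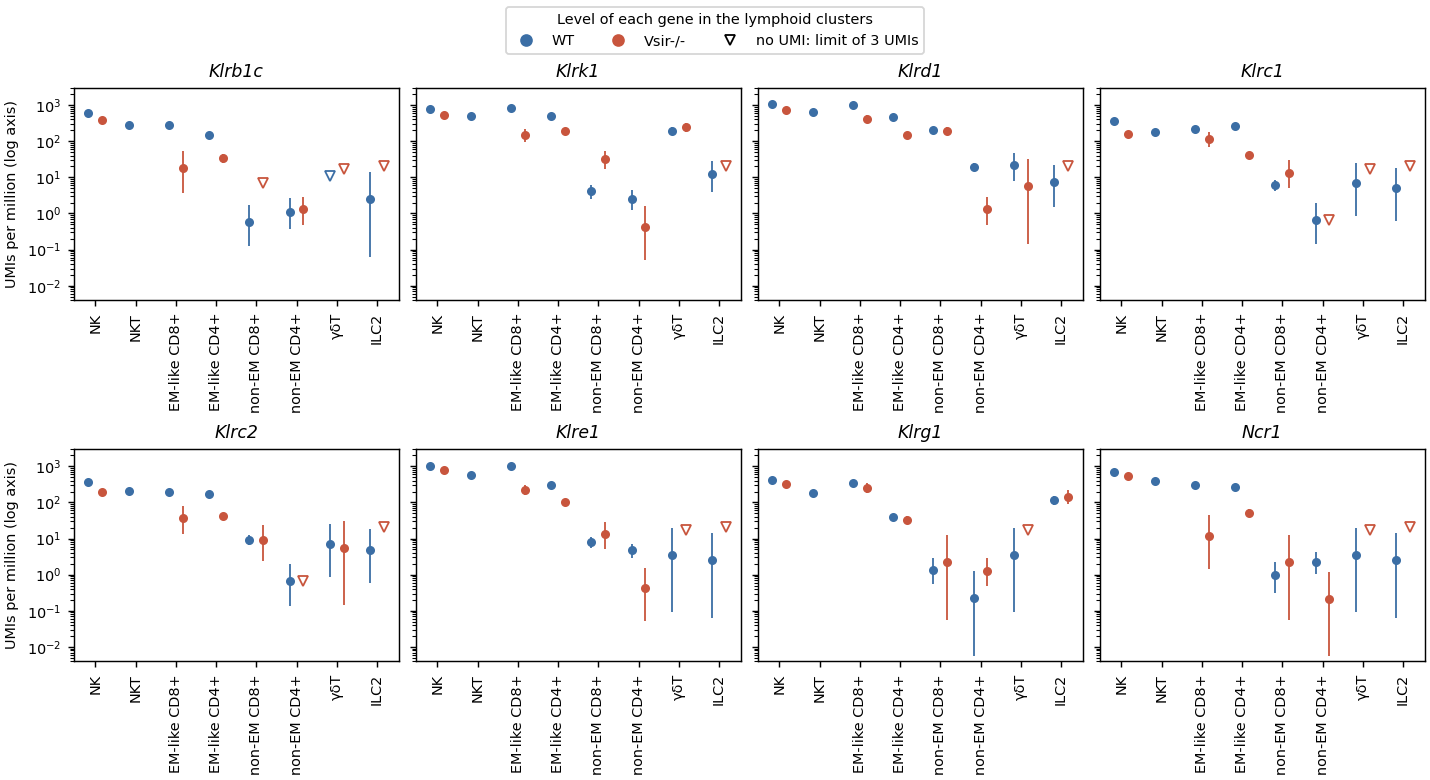
CPM of each gene (log axis) in the 8 lymphoid clusters of the WT library (blue) and the *Vsir-/-* library (red), with 95% counting intervals. Open triangles stand at the limit of 3 UMIs where no UMI was found, and NKT cells were found only in the WT library. The NK points are the highest or level with EM-like CD8+ cells. In the WT library NKT cells also have a high level of every gene, and EM-like CD4+ cells of every gene but *Klrg1*. Beyond these clusters, *Klrd1* is also found in non-EM-like CD8+ cells, *Klrk1* in γδT cells, and *Klrg1* in ILC2.

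CD94 and its partners were looked for in the same cells. In WT NK cells thinned to 1000 UMIs, *Klrd1* and *Klrc1* were found together in 17.4% of 580 cells, and the product of the single shares was 16.4%. *Klrd1* and *Klrc2* were found together in 23.3% of cells, with a product of 21.2%. *Klrc1* and *Klrc2*, the alternative partners, were found together in 7.76% of cells, with a product of 8.75%. At this depth the observed shares lay close to the products, for partners that form a dimer as for partners that compete for CD94. Before thinning, 346 of the 362 WT NK cells with *Klrc1* also held *Klrd1* (58.2% of all cells, with a product of 57.9%). Of the cells without *Klrc1*, 218 held *Klrd1* and 14 did not. *Klrc1* and *Klrc2* met in 273 cells (46.0%, with a product of 45.9%). The transcripts of *Klrc1* and *Klrc2* are partly alike. Of the 91-base words in the last 500 bases of their coding transcripts, 21.5% of those of *Klrc1* and 8.18% of those of *Klrc2* also occur in another gene of the family, and 11.3% of those of *Klrb1c* occur in *Klrb1a* or an unnamed gene model. Their counts are less certain than those of the other 5 genes, for which no such word was found.

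The adaptors and relatives of these receptors were taken as lists. All 4 adaptors were lower in *Vsir-/-* NK cells, none past 2-fold. *Hcst*, which encodes DAP10, had 670 and 408 CPM (log2 ratio -0.71 [-0.93 to -0.51]), and *Tyrobp*, which encodes DAP12, had 2906 and 2221 CPM (-0.39 [-0.48 to -0.30]). *Fcer1g*, the Fc receptor γ chain, had 2217 and 1789 CPM (-0.31 [-0.41 to -0.21]). Of the 10 other lectin-like genes of the NK gene complex with at least 20 UMIs, 8 were below 0 and 4 past 2-fold lower. Over all 8963 genes tested in NK cells, 45.2% were below 0 and 7.01% past 2-fold lower. *Klrb1a* had 841 and 44 UMIs (-1.35 [-1.84 to -0.93]) and *Clec2i* had 86 and 5. *Klrc3* and *Klrb1*, with 33 and 25 UMIs in WT NK cells, had none in *Vsir-/-* NK cells. With these held at 3 UMIs they were at least 1.48-fold and 1.12-fold lower. At that limit 2 of 10 were past 2-fold lower, against 5.81% of all genes tested, and the median moved from -0.65 to -0.45. *Klrb1b*, an inhibitory relative of NK1.1, had 125 and 162 CPM (0.38 [0.01 to 0.71]). *Klri2*, a partner of KLRE1, had 205 and 122 CPM (-0.73 [-1.14 to -0.37]).

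Of 14 signaling genes, 11 were below 0 and none was past 2-fold, against 45.2% below 0 and 7.01% past 2-fold lower over all genes. The kinase *Zap70* had 104 and 53.3 CPM (-0.94 [-1.59 to -0.40]), whereas its relative *Syk* had 70.2 and 112 CPM (0.69 [0.24 to 1.10]). Of 13 transcription factors with at least 20 UMIs, *Bcl11b*, a factor of T cells, was past 2-fold lower (119 and 2 UMIs). *Zeb2*, a factor of mature NK cells, had 576 and 292 CPM (-0.98 [-1.23 to -0.74]), and *Tbx21*, which encodes T-bet, had 179 and 118 CPM (-0.59). *Eomes* had 156 and 176 CPM (0.18 [-0.17 to 0.49]), an interval that holds 0. Of the ligands, 2 of 9 had at least 20 UMIs in NK cells. *H2-T23*, which encodes Qa-1b, had 321 and 254 CPM (-0.33 [-0.61 to -0.07]), and *Ulbp1*, a ligand of NKG2D, had 43 and 9 UMIs. The cadherin *Cdh1*, under that limit, had 0 and 11 UMIs. The tubule genes *Umod* (0 and 107 UMIs) and *Lrp2* (0 and 20 UMIs) were likewise found only in *Vsir-/-* NK cells. The source of the *Cdh1* UMIs was not tested.

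**Figure D2:**
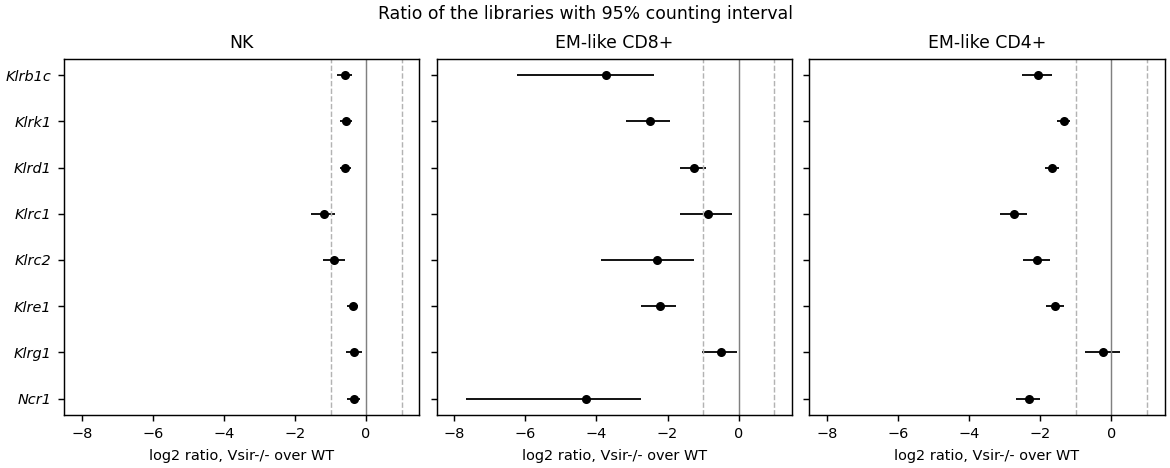
Log2 ratio of CPM, *Vsir-/-* over WT, of the 8 genes in NK, EM-like CD8+, and EM-like CD4+ cells, with 95% counting intervals and dashed lines at 2-fold. The points lie nearer to 0 in NK cells than in the EM-like clusters for 6 of the 8 genes, and *Klrc1* and *Klrg1* have their points nearest 0 in an EM-like cluster.

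The effector memory-like (EM-like) CD8+ T cell cluster (197 WT and 28 *Vsir-/-* cells) had a high level of these receptors in the WT library. A UMI of *Cd3d*, *Cd3e*, or *Cd3g* was in 98.5% of its WT and 100% of its *Vsir-/-* cells. *Klre1* had 1042 CPM and *Klrk1* 828 CPM there in the WT library, which their intervals did not set apart from WT NK cells. *Klrd1* (999 CPM) and *Klrg1* (353 CPM) were slightly below NK cells, and *Klrb1c* (281 CPM) and *Ncr1* (296 CPM) were further below, against 597 and 702 CPM in NK cells.

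In the *Vsir-/-* library all 8 genes were lower in this cluster. *Ncr1* had 244 UMIs in the WT library and 2 in the *Vsir-/-* library (12 CPM), a log2 ratio of -4.30 [-7.67 to -2.75], and *Klrb1c* had 231 and 3 (18.1 CPM), a log2 ratio of -3.74 [-6.25 to -2.39]. *Klrk1* had 682 and 24 UMIs (145 CPM, -2.49 [-3.17 to -1.93]), *Klrc2* had 157 and 6 (36.1 CPM, -2.29 [-3.87 to -1.25]), and *Klre1* had 858 and 37 (223 CPM, -2.21 [-2.74 to -1.75]). The ratios of the other 3 genes were nearer to 0, and the intervals of *Klrd1* and *Klrc1* overlapped that of *Klrc2*. *Klrd1* had 822 and 69 UMIs (416 CPM, -1.26 [-1.64 to -0.91]), *Klrc1* had 174 and 19 (114 CPM, -0.85 [-1.65 to -0.20]), and *Klrg1* had 291 and 41 (247 CPM, -0.50 [-1.03 to -0.04]). *Klrg1* had a UMI in 61.9% and 57.1% of the cells, whereas *Klrk1* had one in 83.8% and 32.1%. Of the 8 genes, 6 were past 2-fold lower and none higher, where 9.98% of the 5521 genes tested in this cluster were lower and 6.03% higher. On the scale of UMIs per cell *Klrd1* no longer was (-0.75), and *Klrg1* stood at 0.0024.

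EM-like CD4+ cells (489 WT and 244 *Vsir-/-* cells) held these receptors too. *Klrc1* had 763 UMIs in the WT library (272 CPM) and 64 in the *Vsir-/-* library (40.6 CPM), a log2 ratio of -2.74 [-3.14 to -2.38]. *Ncr1* had 262 and 52 CPM (-2.32 [-2.68 to -2.00]), *Klrc2* 176 and 41.2 CPM (-2.08 [-2.49 to -1.72]), and *Klrb1c* 144 and 34.2 CPM (-2.07 [-2.52 to -1.67]). *Klrd1* had 480 and 152 CPM (-1.66), *Klre1* 306 and 102 CPM (-1.58), and *Klrk1* 500 and 197 CPM (-1.34). *Klrg1* was apart from the other 7, with 38.9 and 33 CPM (-0.23 [-0.74 to 0.25]). Of the 8 genes, 7 were past 2-fold lower and none higher, where 5.41% of the 9751 genes tested were lower and 10.4% higher. In cells with a *Cd3d*, *Cd3e*, or *Cd3g* UMI alone the ratio of *Klrk1* was -0.98 and 6 of 8 were past 2-fold lower.

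The composition of the EM-like clusters differed between the libraries in these genes. Cells with a UMI of *Ncr1* or *Klrb1c*, a split chosen after the data were seen, made up 65% [57.9 to 71.6] of 197 WT and 14.3% [4.03 to 32.7] of 28 *Vsir-/-* EM-like CD8+ cells. They made up 40.9% [36.5 to 45.4] of 489 WT and 12.7% [8.80 to 17.5] of 244 *Vsir-/-* EM-like CD4+ cells. At 1000 UMIs per cell the shares were 39.7% and 3.57% in the CD8+ cluster and 28.4% and 4.98% in the CD4+ cluster. In NK cells the share was 98.5% in both libraries. In non-EM-like CD8+ cells it was 1.06% and 2%, and the median depth of these cells was 7117 and 8326 UMIs, above the 3886 and 5236 UMIs of EM-like CD8+ cells.

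The cells with *Ncr1* or *Klrb1c* in the WT EM-like CD4+ cluster went against its label. *Cd4* had 2 UMIs in the 200 cells with and 182 in the 289 cells without these receptors. A UMI of *Cd3d*, *Cd3e*, or *Cd3g* was found in 55.5% and 97.2% of them. *Tyrobp* had 1286 CPM with and 74.1 CPM without, *Fcer1g* 1865 and 160 CPM, and *Cd7* 1162 and 245 CPM. *Klrg1* ran the other way, with 12.7 CPM with and 58.1 CPM without. In the WT EM-like CD8+ cluster *Cd8b1*, the β chain of CD8, had 76.3 CPM in the 128 cells with and 975 CPM in the 69 cells without, while *Cd3e* had 781 and 828 CPM. These profiles are given by their genes, and no name was put to them.

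Without the cells that held *Ncr1* or *Klrb1c*, a filter chosen after the data were seen, the ratios of the other 6 genes in EM-like CD4+ cells were -0.30 for *Klrk1*, -1.14 for *Klrd1*, -1.66 for *Klrc1*, -0.90 for *Klrc2*, -1.09 for *Klre1*, and -0.61 for *Klrg1*. Of these, 5 were thus nearer to 0 than in all cells of the cluster. In EM-like CD8+ cells the same filter left -2.30 for *Klrk1*, -1.22 for *Klrd1*, -0.64 for *Klrc1*, -1.77 for *Klrc2*, -2.32 for *Klre1*, and -0.29 for *Klrg1*, on 69 WT and 24 *Vsir-/-* cells. There *Klrk1*, *Klrd1*, and *Klre1* stayed close to their values in all cells of the cluster.

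**Figure D3:**
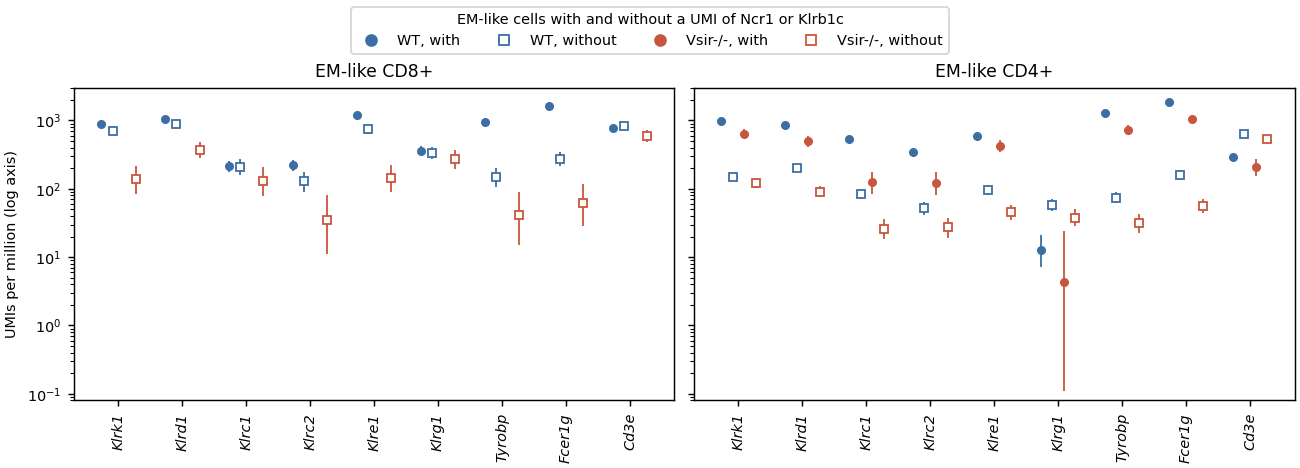
CPM (log axis) of 6 receptors, 2 adaptors, and *Cd3e* in EM-like cells with (filled circles) and without (open squares) a UMI of *Ncr1* or *Klrb1c*, in the WT (blue) and *Vsir-/-* (red) libraries, with 95% counting intervals. The 4 *Vsir-/-* EM-like CD8+ cells with such a UMI are not drawn. In EM-like CD4+ cells *Tyrobp* and *Fcer1g* are higher with, and *Klrg1* and *Cd3e* are higher without.

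*Klrd1*, *Klrk1*, and *Klrg1* each had a cluster in which most cells with the gene held none of the others. *Klrd1* was found in 67.7% of 659 WT and 68% of 50 *Vsir-/-* non-EM-like CD8+ cells, at 199 and 195 CPM (log2 ratio -0.02 [-0.37 to 0.29]). Of these cells, 87.2% and 76.5% held no UMI of another of the 8 genes. At 1000 UMIs per cell *Klrd1* was in 15.2% and 10% of them, against 1.58% and 1.39% of B cells, which should lack it and had median depths of 3426 and 3597 UMIs. *Klrk1* was found in 54.3% of 46 WT and 57.1% of 28 *Vsir-/-* γδT cells, at 192 and 243 CPM (log2 ratio 0.34 [-0.28 to 0.94]), with at most 6 UMIs of each of the other genes in either library. Of the γδT cells with *Klrk1*, 72% of WT and 87.5% of *Vsir-/-* cells held no UMI of another of the 8 genes. *Klrk1* was the only one of the 8 with 20 UMIs there and was not past 2-fold, where 5.98% of the 3379 genes tested were higher and 6.6% lower. *Klrg1* was found in 27.8% of 79 WT and 42.1% of 19 *Vsir-/-* type 2 innate lymphoid cells (ILC2), at 116 and 144 CPM, and in 20 of 22 and 8 of 8 of these cells without another of the genes. No ratio is given for ILC2, since the *Vsir-/-* cluster held under 20 cells. Markers of the labels were found beside other T cell transcripts. *Trdc*, a constant chain of the γδ receptor, had a UMI in 65.2% and 92.9% of γδT cells. *Trac*, a constant chain of the αβ receptor, had one in 45.7% and 25% of them. *Il1rl1*, the IL-33 receptor, had a UMI in 91.1% and 89.5% of ILC2, and *Cd3d*, *Cd3e*, or *Cd3g* in 19% and 31.6%.

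*Klrg1* in EM-like CD4+ cells met *Foxp3*, the factor of regulatory T cells. *Foxp3* had a UMI in 9 of 31 WT and 7 of 28 *Vsir-/-* cells with *Klrg1* (29% and 25%), and in 3.28% and 3.7% of the cells without it.

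In non-EM-like CD8+ cells, 5 of the 8 genes had at least 20 UMIs. *Klrk1* and *Klrc1* were past 2-fold higher in the *Vsir-/-* library, and none was past 2-fold lower, where 11.1% of the 8919 genes tested were higher and 9.66% lower. *Klrk1* had 21 UMIs in 659 WT cells (4.15 CPM) and 14 UMIs in 50 *Vsir-/-* cells (31.7 CPM), which came from 4 cells. In B cells, which should lack it, *Klrk1* had 14.1 CPM in the WT and 26.7 CPM in the *Vsir-/-* library (14 UMIs), and the counting intervals of the *Vsir-/-* levels in both clusters overlapped (17.3 to 53.1 and 14.6 to 44.8 CPM). *Klrc1* had 31 and 6 UMIs, and its interval held 0 (1.24 [-0.40 to 2.43]). Without the cell with most UMIs in each library *Klrc1* was at 0.19. In non-EM-like CD4+ cells *Klrd1* (89 and 6 UMIs) and *Klre1* (21 and 2 UMIs) were past 2-fold lower, against 10.7% of the 12583 genes tested, and 47.8% of genes were past 2-fold higher. Only 33.2% of the *Vsir-/-* cells there held a T cell transcript. In cells with such a transcript alone, *Klrd1* was at -2.15 (89 and 5 UMIs) and *Klre1* at -1.97 (21 and 1 UMIs).

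The NKT cluster held 94 cells, all of the WT library. The 8 genes ran from 176 CPM for *Klrc1* to 653 CPM for *Klrd1*, and each was below its level in WT NK cells. Its label was only in part borne out by its genes. *Zbtb16*, the factor that defines NKT cells, had 2 UMIs (4.34 CPM), *Cd3e* was found in 24.5% of cells and any of *Cd3d*, *Cd3e*, or *Cd3g* in 64.9%, and *H2-Aa*, a class II molecule of antigen-presenting cells, in 89.4% (1858 CPM), at a median depth of 2746 UMIs. All 5 B cell markers were detected, at 7347 CPM together, against 123 CPM in WT NK cells. *Ncr1* and *Klrb1c* were in 53.2% and 46.8% of these cells.

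**Figure D4:**
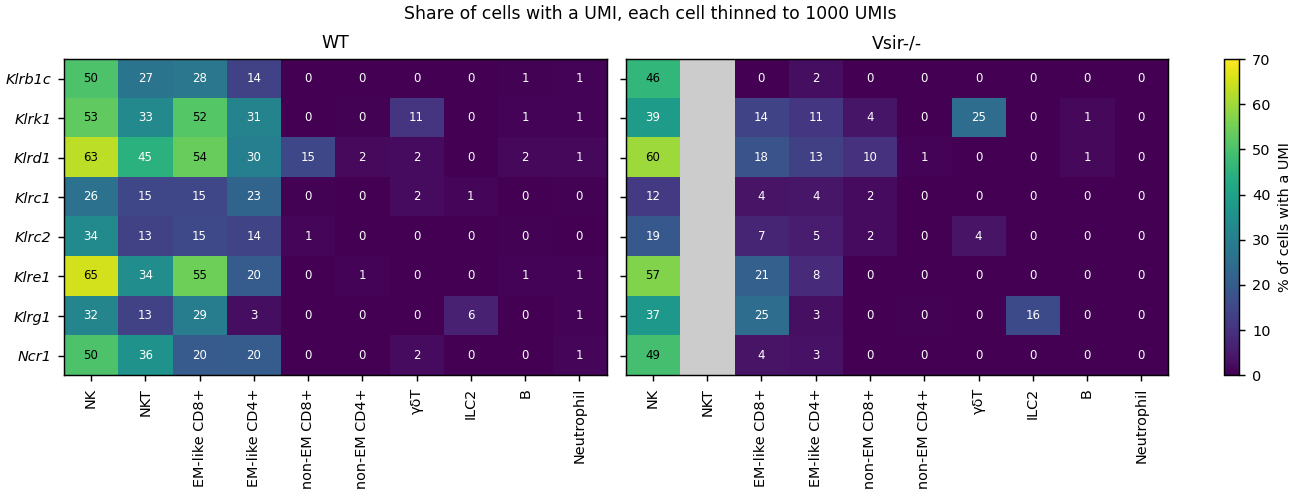
Share of cells (%) with a UMI of each gene in the lymphoid clusters, B cells, and neutrophils, with each cell thinned to 1000 UMIs, in the WT (left) and *Vsir-/-* (right) libraries. Grey marks NKT cells, which the *Vsir-/-* library lacks. B cells and neutrophils hold the genes in at most 1.58% of cells, and the NK column runs from 11.9% to 65.3%.

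B cells and neutrophils, which should lack these genes, were taken as background. A UMI of *Cd3d*, *Cd3e*, or *Cd3g* was in 19.1% of WT and 5.06% of *Vsir-/-* neutrophils. Whether such UMIs came from free RNA or from doublets was not tested. At 1000 UMIs per cell, the 8 genes were in 0.11% to 1.58% of WT B cells and 0.20% to 1.39% of WT neutrophils, whereas in NK cells they were in 26% to 65.3% of WT and 11.9% to 59.7% of *Vsir-/-* cells. Counts in non-EM-like CD4+ cells lay in this background range, except those of *Klrd1* in the WT library (1.69%). This background was itself lower in the *Vsir-/-* library in neutrophils. There 7 of the 8 genes had at least 20 UMIs, with 29 to 83 UMIs each in the WT library and 0 or 1 in the *Vsir-/-* library, and all 7 were past 2-fold lower by the fitted ratio, where 10.6% of genes were lower and 9.99% higher. B cells were mixed. Of 4 genes with at least 20 UMIs there, *Klrc2* (23 UMIs in the WT library) and *Klre1* (43 UMIs) had 0 UMIs in the *Vsir-/-* library, *Klrd1* had 12.9 and 11.4 CPM, and *Klrk1* had 14.1 and 26.7 CPM (log2 ratio 0.96 [-0.05 to 1.80]), where 15.9% of genes were past 2-fold lower and 16.3% higher. With 0 held at the limit of 3 UMIs (5.72 CPM), *Klrc2* at 6.60 CPM in the WT library was not past 2-fold. The part of free RNA or doublets in the ratios of the lymphoid clusters was not tested. In the proliferating cluster, which mixes cell types, all 8 genes were past 2-fold lower in the *Vsir-/-* library, where 9% of the 12248 genes tested were lower and 37.5% higher, with *Ncr1* at 287 and 16.2 CPM. There 96.6% of WT and 34.9% of *Vsir-/-* cells held a T cell transcript, and the part of this in the ratios was not tested.

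The order of clusters was read for each gene within a library. In the WT library NK cells stood first for *Klrb1c*, *Klrd1*, *Klrc1*, *Klrc2*, *Klrg1*, and *Ncr1*. They are called apart from the next cluster where the counting interval of the log2 ratio did not hold 0, as for all of these genes. Such intervals leave out the spread between cells and between mice. Those of *Klrd1* (0.02 to 0.24) and *Klrg1* (0.04 to 0.40) over EM-like CD8+ cells came close to 0. For *Klrk1* and *Klre1* EM-like CD8+ cells stood first but were not apart from NK cells. The fourth place of *Klrg1* was held by ILC2 and the fifth of *Klrd1* by non-EM-like CD8+ cells, each apart from its neighbors. In the *Vsir-/-* library NK cells stood first for all 8 genes, and only for *Klrc1* and *Klrg1* were they not apart from EM-like CD8+ cells. *Klrk1* had γδT cells in its second place in that library, not apart from EM-like CD4+ cells.

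The likeness of levels was described over 14 profiles, each 1 lymphoid cluster of 1 library with at least 20 cells, by Pearson's r of log2(CPM + 10) among 9049 genes. Profiles of 1 library share its depth and free RNA. *Ncr1* and *Klrb1c* were most alike (r = 0.99), and *Klrk1* and *Klrg1* least (r = 0.66). Outside the 8 genes, *Klrb1c* and *Ncr1* were most like *Tyrobp* (0.99 and 0.98), followed by *Fcer1g* and the Ly49 gene *Klra7*. *Klrd1* was most like *Nkg7* (0.97), *Ccl5* (0.95), and *Gm14029* (0.93), and *Klre1* most like *Klra9* (0.99), *Efhd2* (0.99), and *Il12rb2* (0.98). *Klrc1* had *Efhd2* (0.98), *Apobr*, and *Slamf7*, and *Klrc2* had *Klra9* (0.97), *Apobr*, and *Tyrobp*. *Klrk1* had *Gem* (0.94), *Myo1f*, and *Gfod1*, and *Klrg1* had *Cdk2ap1* (0.97), *Slbp*, and *Gzmb* (0.94), none of which was shared with another of the 8.

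**Figure D5:**
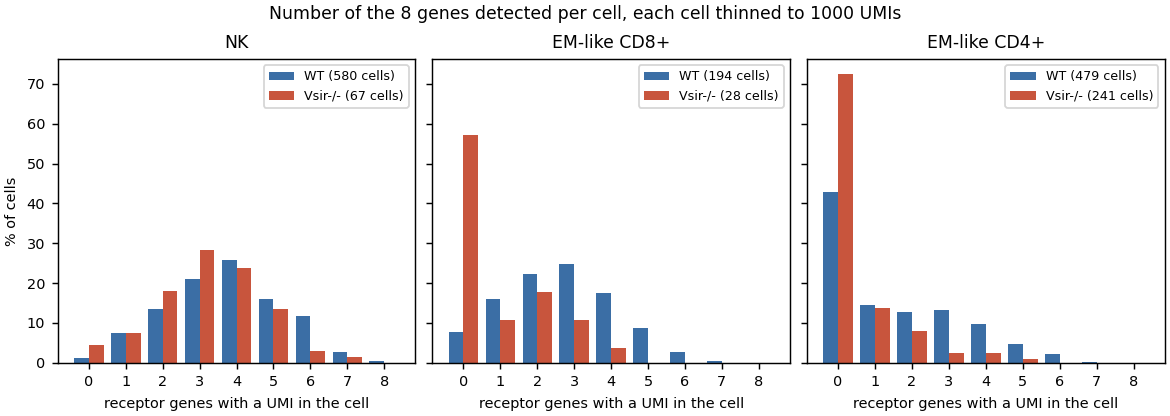
Number of the 8 genes with a UMI per cell (x axis) and share of cells in percent (y axis), each cell thinned to 1000 UMIs, in NK, EM-like CD8+, and EM-like CD4+ cells of the WT (blue) and *Vsir-/-* (red) libraries. The bars at 0 hold 1.21% of WT and 4.48% of *Vsir-/-* NK cells, 7.73% and 57.1% of EM-like CD8+ cells, and 42.8% and 72.6% of EM-like CD4+ cells.

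At 1000 UMIs per cell, the median EM-like CD8+ cell held 3 of the 8 genes in 194 WT cells and 0 in 28 *Vsir-/-* cells. The median EM-like CD4+ cell held 1 in the WT and 0 in the *Vsir-/-* library, a gap of 1 gene as in NK cells. Without thinning, 6 or more of the genes were seen in 47.7% of EM-like CD8+ cells in the WT library. None of the 28 *Vsir-/-* cells held 6 or more, which allows a share of up to 10.7%. In NK cells 6 or more were seen in 87.4% of WT and 88.1% of *Vsir-/-* cells.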

How the data were processed

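The authors deposited raw UMI counts, without normalization, for the genes and cells that passed their filters, beside a table of cells with the authors' cluster names and the percent of mitochondrial UMIs that the authors computed, which was used only as a filter. According to the labels' processing notes and the methods of the study, the authors used Cell Ranger (3.1.0) and Seurat (3.2.3) in R (4.0.3), and the build mm9. Whether doublets were removed is not given in the sources used here, and none were removed here.

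UMIs were summed by cluster and library, and CPM were taken over all UMIs of the same cells. Intervals at the 95% level were exact Poisson (CPM), Clopper-Pearson (shares), and exact conditional (ratios). Ratios needed 20 cells in each library, and counts of genes needed 20 UMIs in the cluster. Being called means past 2-fold, and a count of 0 allows up to 3. Cells were thinned to 1000 UMIs (seed 1), leaving out 167 WT and 78 *Vsir-/-* cells. The named genes were the 8 genes, the fixed lists, and the 3 genes most like each, among genes with at least 200 UMIs over the profiles. The genes and lists were chosen with earlier results of these data known. The ratios and their intervals were tested on simulated Poisson sums of NK cells, which hold no added spread between cells. Pearson's r was tested on planted profiles, and the other steps were not simulated. Start sites and transcripts came from RefSeq and GENCODE tables of a later build than mm9. Python 3.11.15, numpy 2.4.6, scipy 1.17.1, pandas 2.3.3, and matplotlib 3.10.9 were used.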

Additional observations from a re-analysis of the deposited data

Results flagged for a closer look

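The fitted ratio of *Klrk1* had another sign in non-EM-like CD8+ cells than in NK and EM-like cells, at low counts. Its log2 ratio of *Vsir-/-* over WT was 2.95 [1.84 to 3.98] in non-EM-like CD8+ cells (21 WT and 14 *Vsir-/-* UMIs), whereas it was below 0 in NK, EM-like CD8+, and EM-like CD4+ cells. The *Vsir-/-* level was 31.7 CPM and the WT level 4.15 CPM. In B cells, which should lack the gene, these levels were 26.7 and 14.1 CPM. The ratio was also above 0 in γδT cells (0.34 [-0.28 to 0.94]) and B cells (0.96 [-0.05 to 1.80]), with intervals that held 0. The difference between clusters was not tested, nor was the source of the *Klrk1* UMIs in B cells and non-EM-like CD8+ cells. Without the cell with most UMIs in each library, the ratio in non-EM-like CD8+ cells was 1.87 (17 and 5 UMIs).

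Outside the lymphoid clusters, *Klrd1* was higher in the *Vsir-/-* library in the cluster named plasmacytoid dendritic cells, with a log2 ratio of 1.09 [0.62 to 1.63]. It had 38 UMIs in 21 WT cells (144 CPM, 57.1% of cells) and 366 UMIs in 86 *Vsir-/-* cells (309 CPM, 60.5% of cells). *Klrk1* was there too, at 86.9 and 101 CPM. Transcripts of NK cells were in the WT cells of this cluster. *Nkg7* had 70 UMIs (264 CPM), *Gzma* 204 UMIs (771 CPM, 42.9% of cells), and *Prf1* 23 UMIs there, against 1, 2, and 0 UMIs in the *Vsir-/-* cells. The 6 NK markers together gave 1254 and 3.38 CPM. *Xcr1* and *Clec9a*, markers of conventional type 1 dendritic cells, had 11.3 and 26.4 CPM in the WT library and 190 and 109 CPM in the *Vsir-/-* library, against 200.2 and 205 CPM of *Siglech*. The part of these genes in the difference was not tested.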

How the results depend on the processing

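With 1 library per genotype, no library could be left out, so the values rest on 2 libraries, and the sort, the depth, and the genotype cannot be told apart. No paired analysis was possible because each group holds 1 library. Of 72 alternative values of the 8 ratios in NK cells, 71 were below 0 and 57 lay within the interval of the reported ratio. With cells thinned to 1000 UMIs, *Klrb1c* was at -0.13, *Klrd1* at -0.25, and *Klrg1* turned to 0.30, on 42, 63, and 36 *Vsir-/-* UMIs. By the mean of CPM over cells, without thinning, these 3 genes were at -0.43, -0.61, and -0.31. In the NK cells without a T cell transcript, *Klrb1c* was at -0.23, *Klrc1* at -1.67, *Klrc2* at -1.31, *Klre1* at -0.21, and *Ncr1* at -0.12, and 2 genes were past 2-fold lower. This filter dropped most cells, as 85% of WT and 76.1% of *Vsir-/-* NK cells held such a transcript, *Trbc1* and *Trbc2* included. It left 110 WT and 9 *Vsir-/-* UMIs of *Klrc1*. As UMIs per cell, the ratios were -0.34 for *Klrb1c*, -0.30 for *Klrk1*, -0.33 for *Klrd1*, -0.12 for *Klre1*, -0.074 for *Klrg1*, and -0.086 for *Ncr1*, and 0 genes were past 2-fold. In cells with at most 10000 UMIs, a limit chosen after the data were seen, *Klrb1c* was at -0.35. In the T cell clusters, 119 of 132 alternative values lay within the interval, and *Klrg1* in EM-like CD8+ cells turned to 0.0024 as UMIs per cell. The count includes the filter for a T cell transcript in EM-like CD8+ cells, which dropped no cell, as 100% held one. Some of the intervals were wide, as that of *Ncr1* in these cells (-7.67 to -2.75). In non-EM-like CD8+ cells, 1 gene was past 2-fold lower with a mitochondrial share of at most 5%, and 1 was lower and 1 higher without the cell with most UMIs in each library. Among all genes in NK cells, 884 were past 2-fold higher and 628 lower, 173 and 168 with at least 100 UMIs, and 4692 and 1064 with no filter. The causes of these changes were not tested. Of the 3 genes most like each of the 8, 5 of 24 were the same with Spearman's rho, and 5 of 24 with the WT profiles alone.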

Other observations

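Genes of type 1 innate lymphoid cells had mixed values in NK cells. *Tmem176a* had 18 UMIs in the WT library and 38 in the *Vsir-/-* library (4.79 and 75 CPM), *Tnfsf10*, which encodes TRAIL, had 23 and 21 UMIs (6.12 and 41.4 CPM), and *Itga1* had 24.2 and 45.4 CPM (log2 ratio 0.93 [0.18 to 1.58]). *Cxcr6* was lower (79 and 4 UMIs), and *Cd7* had 245 and 249 CPM. The 6 genes of this list together gave 304 and 418 CPM in NK cells, but were also higher in the *Vsir-/-* library in B cells (21.8 and 496 CPM), non-EM-like CD4+ cells (47.1 and 909 CPM), and the cluster named M2-like R2 (175 and 345 CPM). The list was lower in the *Vsir-/-* library in EM-like CD4+ cells (1542 and 1189 CPM), γδT cells (2209 and 1997 CPM), and the cluster named plasmacytoid dendritic cells (737 and 560 CPM). Tubule transcripts were higher in clusters of both kinds, and their part was not tested. Of the genes of neutrophils and macrophages, *S100a8* had 159 and 31.6 CPM and *C1qa* had 1.33 and 53.3 CPM in NK cells.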
